A study of Mus with 6 samples.

Results

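DNA repair and damage checkpoint genes were examined in an RNA-seq comparison of chondrocytes, the cells of cartilage, from Sirt6 cKO and WT mice. Members were chosen by gene name, by a rule that uses no measured value but was written with earlier results of these data known, to cover homologous recombination, the Fanconi anemia pathway, end joining, mismatch repair, base excision and single-strand break repair, the PARP family, nucleotide excision repair and the damage checkpoint. The names took in 81 of the 11659 genes in the count table. Of these, 26 stood in rows where counts and gene label do not match or could not be matched and which were left out, leaving 55 members in 8 pathways among 6621 usable genes. All 55 had enough counts to be tested, so no member was lost to a filter on low values.

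The study asked what the loss of Sirt6, a sirtuin deacetylase of the nucleus, changes in chondrocyte gene expression. Each group held 3 samples of knee cartilage chondrocytes from 12-week-old C57BL/6J mice, labelled wild type or Sirt6 cKO. By the study's methods the cKO animals carried Sirt6 flox/flox and a tamoxifen-inducible Cre under the Col2a1 promoter (Col2a1-CreERT2), so deletion depends on cells that use that promoter. The methods state that experiments used primary chondrocytes grown in culture to first passage, whereas the labels describe frozen material. The sources used here do not say whether the WT mice carried Cre or floxed alleles, whether either group of these samples received tamoxifen, or in so many words that each sample came from its own animal, although the study speaks of chondrocytes of 3 control and 3 knockout mice. The p-values measure the spread between samples, which may be technical.

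DNA repair is a set of pathways, each suited to one kind of lesion. Base excision repair removes single damaged bases, nucleotide excision repair cuts out bulky adducts, mismatch repair corrects replication errors, and the Fanconi anemia proteins open crosslinks between strands. Double-strand breaks are either rejoined directly, by end joining, or copied from the sister chromatid, by homologous recombination, which works mainly in S and G2 phase. The checkpoint kinases ATM and ATR sense breaks and stalled forks and halt the cell cycle, and SIRT6 itself is known to act at breaks and to stimulate PARP1.

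The targeted gene followed the labels. Sirt6 was at 427, 338 and 362 CPM (counts scaled to a common library size with TMM factors) in the WT samples and at 36.2, 28.7 and 22.3 in the Sirt6 cKO samples, a log2 fold change of -3.69 (SE 0.21, edgeR quasi-likelihood test, adjusted p = 8e-06). The counts are per gene and do not show which exons were deleted. Library totals ran from 25726958 to 30156935 counts. WT replicate 1 stood apart from the other WT samples: over 6615 genes its ratio to them fell with exon length (Spearman -0.478, a description across genes), from a median log2 ratio of 0.44 for genes with up to 1000 exon bases to -0.42 for those over 8000, and its log-scale correlation with them was 0.969 and 0.971 against 0.993 between those 2. Sirt6 cKO replicate 1 showed a weaker trend of the same sign (Spearman -0.281). Results are therefore also given without WT replicate 1. Among the markers of cartilage that had a usable row, 4 of 5 (Col11a1, Comp, Ucma and Sox9) were called higher in Sirt6 cKO, with a summed level of 199 to 217 CPM in WT and 393 to 492 in Sirt6 cKO. The fifth, Col9a3, did not pass (log2 fold change -0.53, adjusted p = 0.0756), with all Sirt6 cKO samples below all WT samples. Comp was under 1 CPM in every WT sample, at 0.623, 0.474 and 0.925. Of 9 synovial fibroblast markers 5 (Pdgfra, Col1a1, Col1a2, Dcn and Lum) were called higher and 1, Cd34, lower (log2 fold change -0.54). Thy1 (0.09), Pdpn (-0.36) and Has1 (-0.26) did not pass. The summed level was 11800 to 12000 CPM in WT and 36500 to 42100 in Sirt6 cKO. Most of it came from Col1a1 (mean 4030 in WT, 10200 in Sirt6 cKO) and Col1a2 (6650 and 26400). Lum was at 0, 0.136 and 0.132 CPM in WT. Osteoblast markers rested on 2 genes (713 to 904 CPM in WT, 1120 to 1170 in Sirt6 cKO), macrophage markers on Cd68 alone (at most 1.73 CPM), and the endothelial markers, Acan and Col2a1 were not analysed here. The part of these cell type and library differences in the results that follow was not tested.

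Repair genes were more often lower than higher in Sirt6 cKO. Of the 55 members, 24 (43.6%) were called lower at an adjusted p under 0.05, against 24.3% of all 11246 genes tested, and 7 (12.7%) were called higher, against 22.5%. A fall of more than 2-fold, the study's own threshold, was called for 15 members (27.3%, against 7.15% of all genes), and a rise of more than 2-fold for Rad9b alone (1.82%, against 8.72%). Tested against a 2-fold change itself (glmTreat in edgeR), 8 members fell (14.5%, against 3.02% of all genes). The median log2 fold change was -0.43 over the members and 0.00 over all genes tested, and 37 members had a value below 0. In bulk samples, fewer cells of a type and less RNA per cell cannot be told apart. Without WT replicate 1 the fit called 29 members lower (52.7%, against 27.8% of all genes) and 9 higher (16.4%, against 27.5%), with a median of -0.40.

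Every member called lower had its 3 Sirt6 cKO values below its 3 WT values, and every member called higher the reverse. Counting members that missed the threshold as well, the groups did not overlap in 25 members on the lower side (45.5%, against 30.6% of all genes) and 14 on the higher side (25.5%, against 30.2%). Calls were kept in all 6 fits that left out 1 sample each by 19 of the 24 lower and 4 of the 7 higher members, and the others are named with their pathways.

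**Figure D1:**
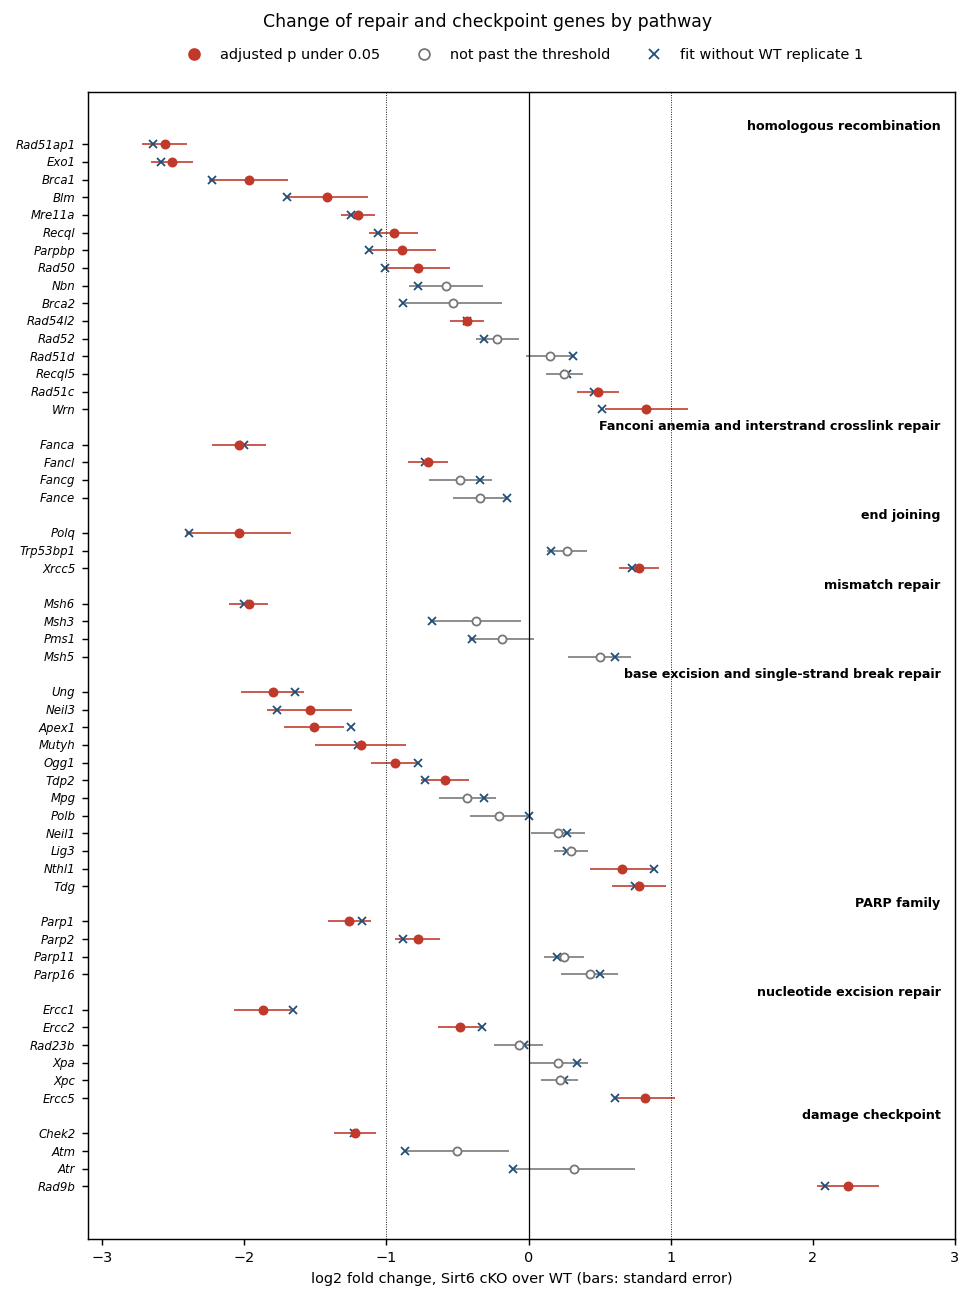
Log2 fold change of Sirt6 cKO over WT (horizontal axis, bars are the standard error of the edgeR fit on 3 against 3 samples) for 53 of the 55 members, ordered within 8 pathways. Filled points passed an adjusted p of 0.05, crosses give the fit without WT replicate 1, and dotted lines mark a 2-fold change. The values run from -2.56 for Rad51ap1 to 2.25 for Rad9b, and 24 filled points lie left of 0 against 7 on the right.

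Homologous recombination, the largest pathway here, held the largest number of lower genes. Of its 16 members, 9 (56.2%, against 24.3% of all genes) were called lower, 2 (12.5%, against 22.5%) higher and 5 neither, with a median log2 fold change of -0.68. The largest falls were in factors of end resection, strand invasion and junction processing. Rad51ap1 (ENSMUSG00000030346, GRCm38 chr6:126923050-126939587), which helps a broken strand pair with its template, was at 41.1, 47.3 and 51.5 CPM in WT and at 8.25, 7.08 and 8.44 in Sirt6 cKO. Exo1 (ENSMUSG00000039748, chr1:175880778-175911396), an exonuclease of end resection and mismatch repair, was at 52.9, 63.8 and 62.1 CPM in WT and at 11.3, 10.3 and 9.82 in Sirt6 cKO. In both genes the WT samples lay close together and several-fold above the highest Sirt6 cKO sample. The log2 fold change was -2.56 for Rad51ap1 (SE 0.16, adjusted p = 1.1e-05) and -2.51 for Exo1 (SE 0.15, adjusted p = 9.35e-06), a mean of 46.6 ± 5.24 against 7.93 ± 0.734 CPM and of 59.6 ± 5.89 against 10.5 ± 0.751 CPM (SD, n = 3 each).

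Brca1 and Blm fell as well, but with an uneven WT group. Brca1 (ENSMUSG00000017146, chr11:101488764-101551955), the ubiquitin ligase that steers breaks toward recombination, was at 52.1, 105 and 100 CPM in WT and at 20.8, 27.4 and 17.7 in Sirt6 cKO (log2 fold change -1.97, SE 0.28, adjusted p = 0.000793). Blm (ENSMUSG00000030528, chr7:80454993-80535119), a RecQ helicase that dissolves joined DNA molecules, was at 19.7, 42.1 and 41.8 CPM in WT and at 12.1, 15.3 and 11.2 in Sirt6 cKO (log2 fold change -1.42, SE 0.29, adjusted p = 0.00407). WT replicate 1 held 50.6% of the mean of the other WT samples for Brca1 and 47.1% for Blm, and was still above every Sirt6 cKO sample. Without it the differences were larger, at -2.23 for Brca1 and -1.70 for Blm.

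The complex of MRE11, RAD50 and NBN binds broken ends first and recruits ATM. Mre11a, its nuclease, was at 84.7, 92.7 and 93.0 CPM in WT and at 40.7, 38.5 and 38.1 in Sirt6 cKO (log2 fold change -1.20, SE 0.12, adjusted p = 0.000131). Rad50 was at 48.6, 93.6 and 84.6 CPM in WT and at 45.5, 43.7 and 43.1 in Sirt6 cKO (log2 fold change -0.78, SE 0.23, adjusted p = 0.0207). Nbn was at 20.6, 35.9 and 32.1 CPM in WT and at 19.6, 14.4 and 25.4 in Sirt6 cKO (log2 fold change -0.58, SE 0.26, adjusted p = 0.0947). The Mre11a groups were far apart, whereas the Rad50 groups were separated only narrowly, by WT replicate 1, and the Nbn groups overlapped. The Rad50 call was lost in 5 of the 6 fits that left out a sample (all but the one without WT replicate 1, adjusted p = 0.0563 to 0.0737). Nbn was called without WT replicate 1 (-0.78, adjusted p = 0.0132) and with the replicate number as a block (adjusted p = 0.0459).

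Brca2, which acts with BRCA1 in strand invasion, showed the same uneven WT group. Its values were 13.4, 41.1 and 35.6 CPM in WT and 19.1, 21.8 and 21.4 in Sirt6 cKO, with a log2 fold change of -0.53 (SE 0.34, adjusted p = 0.23). WT replicate 1 was the lowest of the 6 samples and the other WT samples the highest. Without it the log2 fold change was -0.88 (SE 0.12, adjusted p = 0.00045). Brca2 was also called with the exon length trend removed and the replicate number as a block (-0.61, adjusted p = 0.0391).

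Recql, a RecQ helicase, was lower (log2 fold change -0.95, adjusted p = 0.00216), and 38.5% of its exon bases also belong to Pyroxd1 on the opposite strand, whose own value was 0.52 (adjusted p = 0.0982). The study's methods describe strand-specific libraries. Whether counting used the strand is not given in the sources used here, so reads of such pairs may be split. Parpbp, a protein that restrains recombination, was lower (log2 fold change -0.89, adjusted p = 0.0161), a call lost without WT replicate 2, WT replicate 3 or Sirt6 cKO replicate 3 (adjusted p = 0.0502 to 0.0699). Rad54l2, a helicase that entered by its name and is known as a partner of the androgen receptor, was lower (log2 fold change -0.43, adjusted p = 0.0209), a call lost in 4 of the 6 fits (without WT replicate 2 or 3, or Sirt6 cKO replicate 1 or 3, adjusted p = 0.0622 to 0.0909).

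On the higher side were a strand-exchange cofactor and a RecQ helicase. Rad51c was at 11.5, 11.9 and 12.8 CPM in WT and at 18.3, 15.3 and 17.5 in Sirt6 cKO (log2 fold change 0.49, SE 0.15, adjusted p = 0.0259). Wrn, the helicase and exonuclease mutated in Werner syndrome, was at 10.6, 26.8 and 23.4 CPM in WT and at 36.4, 37.7 and 33.8 in Sirt6 cKO (log2 fold change 0.83, SE 0.29, adjusted p = 0.0451). All Sirt6 cKO samples were above all WT samples for both genes, and WT replicate 1 was by far the lowest for Wrn. Neither call was kept in every fit that left out a sample. That of Rad51c was lost without WT replicate 2, WT replicate 3 or Sirt6 cKO replicate 1 (adjusted p = 0.0532 to 0.114) and that of Wrn in 4 of 6 fits (without WT replicate 3 or any 1 of the Sirt6 cKO samples, adjusted p = 0.0531 to 0.113). For Wrn the log2 fold change was 0.52 without WT replicate 1 (adjusted p = 0.00574). Rad52 (-0.22), Rad51d (0.15) and Recql5 (0.25) did not pass the threshold.

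**Figure D2:**
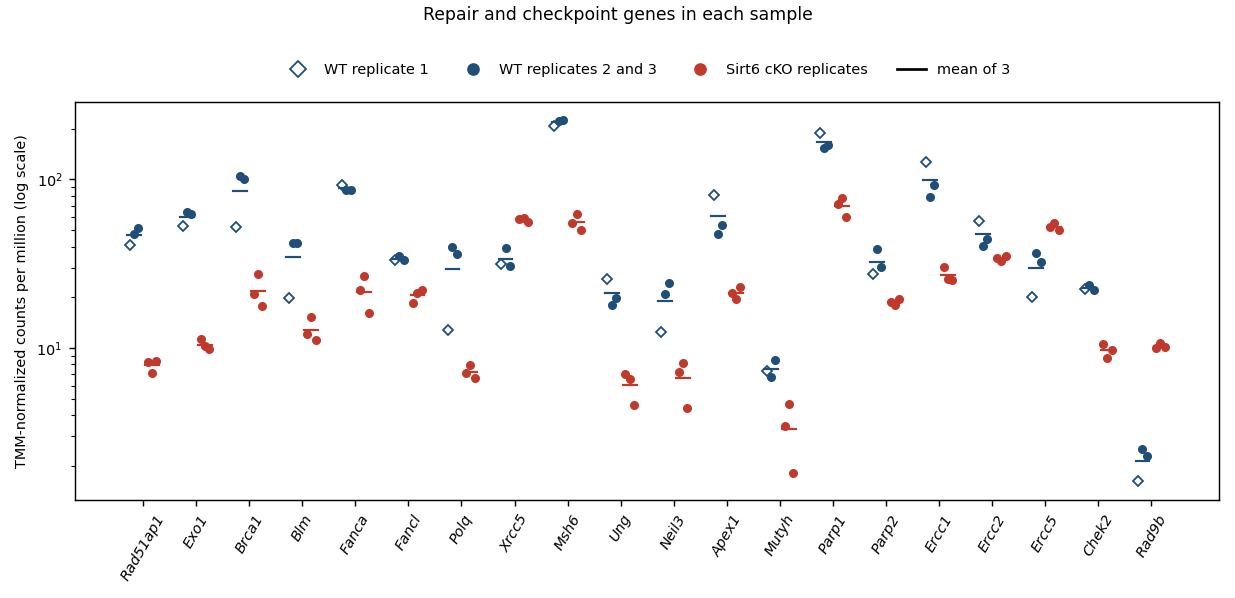
TMM-normalized CPM on a log axis for 20 members in each of the 6 samples, with WT replicates left (replicate 1 as an open diamond) and Sirt6 cKO replicates right of each tick and horizontal lines at the mean of 3. The genes shown were picked from the called members, none of which overlaps between the groups. Over all genes tested, 30.6% had every Sirt6 cKO sample below and 30.2% above every WT sample. WT replicate 1 lies well below the other WT samples and toward the Sirt6 cKO samples for Brca1, Blm, Polq and Neil3.

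Of the 4 Fanconi anemia members, 2 were called lower (against 24.3% of all genes), none higher (against 22.5%) and 2 neither, with a median log2 fold change of -0.59. Fanca (ENSMUSG00000032815, chr8:123268300-123318576), a subunit of the core complex, was at 92.5, 86.5 and 86.6 CPM in WT and at 22.1, 26.6 and 16.1 in Sirt6 cKO (log2 fold change -2.04, SE 0.19, adjusted p = 8.01e-05). Fancl (ENSMUSG00000004018, chr11:26386135-26471876), the ubiquitin ligase of that complex, was at 33.2, 35.0 and 33.3 CPM in WT and at 18.5, 21.2 and 22.2 in Sirt6 cKO (log2 fold change -0.71, SE 0.14, adjusted p = 0.00336). The WT values of both genes were nearly equal, and the groups were widely separated. Fanca has 8491 exon bases and was not low in WT replicate 1 (107% of the other WT samples), unlike Brca1 with a near-equal length of 8476. Fancg, at 12.3, 9.15 and 9.65 CPM in WT against 7.29, 9.18 and 5.84 in Sirt6 cKO, and Fance, at 45.3, 33.0 and 30.7 against 31.9, 29.7 and 24.4, overlapped between the groups (adjusted p = 0.102 and 0.161). Fancd2 was not analysed here.

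Of the 3 end joining members, 1 was called lower, 1 higher and 1 neither, near the shares of 24.3% and 22.5% of all genes. Polq (ENSMUSG00000034206, chr16:37011786-37095417), the polymerase of microhomology-mediated end joining, was at 12.8, 39.7 and 36.3 CPM in WT and at 7.12, 7.92 and 6.62 in Sirt6 cKO (log2 fold change -2.04, SE 0.37, adjusted p = 0.00261). Xrcc5 (ENSMUSG00000026187, chr1:72307421-72394952), the larger Ku subunit of classical end joining, was at 31.4, 39.0 and 30.8 CPM in WT and at 58.5, 59.3 and 55.8 in Sirt6 cKO (log2 fold change 0.78, SE 0.14, adjusted p = 0.0025). Trp53bp1, which shields ends from resection, was at 72.7, 94.9 and 92.1 CPM in WT and at 97.4, 110.0 and 106 in Sirt6 cKO (log2 fold change 0.27, SE 0.14, adjusted p = 0.154), and its value was -0.03 with the exon length trend removed. The groups did not overlap for any of the 3 genes (all genes: 30.6% with Sirt6 cKO below and 30.2% above), and for Trp53bp1 the gap between them was small against the WT spread. WT replicate 1 held 33.7% of the other WT samples for Polq, and the log2 fold change without it was -2.39 (SE 0.13, adjusted p = 4.59e-06). Xrcc6, Prkdc and Lig4, other genes of classical end joining, were not analysed here.

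In mismatch repair 1 of 5 members (20%) was called lower, no more than the 24.3% of all genes, and none higher (against 22.5%). Msh6 (ENSMUSG00000005370, chr17:87975050-87990883), a subunit of the complex that recognises base mismatches, was at 207, 223 and 225 CPM in WT and at 55, 62.4 and 50.1 in Sirt6 cKO, a log2 fold change of -1.97 (SE 0.14, adjusted p = 1.77e-05). WT replicate 1 lay close to the other WT samples, and the groups were far apart.

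The remaining mismatch repair genes turned on WT replicate 1. Msh3, which recognises larger loops, was at 8.02, 17.7 and 20.2 CPM in WT and at 11.0, 14.8 and 9.69 in Sirt6 cKO (log2 fold change -0.37, adjusted p = 0.369), and -0.68 without that sample (adjusted p = 0.0164). Pms1 went from -0.19 (adjusted p = 0.523) to -0.40 (adjusted p = 0.0475). Msh5, known for its role in meiosis and the member with the lowest level per length in WT, went from 0.50 (adjusted p = 0.0965) to 0.61 (adjusted p = 0.0433).

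Of the 12 members of base excision and single-strand break repair, 6 (50%, against 24.3% of all genes) were called lower, 2 (16.7%, against 22.5%) higher and 4 neither, with a median log2 fold change of -0.51. The pathway starts with DNA glycosylases, which cut out one damaged base each. Ung (ENSMUSG00000029591, chr5:114130386-114139323), which removes uracil, was at 25.8, 17.9 and 19.7 CPM in WT and at 7.02, 6.52 and 4.59 in Sirt6 cKO (log2 fold change -1.80, SE 0.22, adjusted p = 0.000358). Neil3 (ENSMUSG00000039396, chr8:53586867-53639065), a glycosylase for oxidised bases in single-stranded DNA, was at 12.4, 20.8 and 24.2 CPM in WT and at 7.19, 8.21 and 4.42 in Sirt6 cKO (log2 fold change -1.54, SE 0.30, adjusted p = 0.0036). The groups were apart for both, with WT replicate 1 the highest WT sample for Ung and the lowest for Neil3.

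Apex1 (ENSMUSG00000035960, chr14:50924968-50927139), the endonuclease that nicks the abasic site left by glycosylases, was at 80.4, 47.4 and 53.5 CPM in WT and at 21.1, 19.6 and 22.9 in Sirt6 cKO (log2 fold change -1.51, SE 0.21, adjusted p = 0.000644). Mutyh (ENSMUSG00000028687, chr4:116807723-116819440), which removes adenine paired with oxidised guanine, was at 7.31, 6.78 and 8.46 CPM in WT and at 3.46, 4.69 and 1.82 in Sirt6 cKO (log2 fold change -1.18, SE 0.32, adjusted p = 0.0156). The Apex1 groups were wide apart, with WT replicate 1 the highest, while the Mutyh levels were low, the groups were closer and Sirt6 cKO replicate 3 was the lowest. Of the exon bases of Apex1, 61.7% also belong to Pip4p1 on the opposite strand, which was itself called lower (log2 fold change -0.65, adjusted p = 0.0132). Without WT replicate 1 the value for Apex1 was -1.25 (adjusted p = 5.99e-05).

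Ogg1, the glycosylase for oxidised guanine, was at 38.1, 29.5 and 27.0 CPM in WT and at 17.6, 15.0 and 16.7 in Sirt6 cKO (log2 fold change -0.94, SE 0.17, adjusted p = 0.00256). Tdp2, which frees DNA ends from trapped topoisomerase, was at 17.9, 25.2 and 24.0 CPM in WT and at 15.4, 15.5 and 13.6 in Sirt6 cKO (log2 fold change -0.59, SE 0.17, adjusted p = 0.0208). Ogg1 was well separated, whereas the Tdp2 call held in the fit without WT replicate 1 and was lost in the other 5 (adjusted p = 0.0552 to 0.0815).

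The genes called higher were the glycosylases Nthl1 and Tdg. Nthl1, for oxidised pyrimidines, was at 9.43, 5.52 and 6.94 CPM in WT and at 12, 12.6 and 9.86 in Sirt6 cKO (log2 fold change 0.66, SE 0.23, adjusted p = 0.0395). Tdg, which removes thymine from mismatches and acts in DNA demethylation, was at 3.53, 3.83 and 3.83 CPM in WT and at 6.61, 6.72 and 5.98 in Sirt6 cKO (log2 fold change 0.78, SE 0.19, adjusted p = 0.00947). The gap between the groups was narrow for Nthl1, whose call was lost in 4 of 6 fits (without WT replicate 2 or 3, or Sirt6 cKO replicate 1 or 2, adjusted p = 0.0994 to 0.126), and wide for Tdg against the spread within each group. Polb, the polymerase that fills the gap, was at 28.0, 17.5 and 20.9 CPM in WT and at 19.5, 16.7 and 21.1 in Sirt6 cKO (log2 fold change -0.21, SE 0.20, adjusted p = 0.412).

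Neil1, another glycosylase for oxidised bases, was at 7.14, 6.71 and 5.98 CPM in WT and at 8.39, 8.08 and 6.52 in Sirt6 cKO (log2 fold change 0.21, SE 0.19, adjusted p = 0.374). Lig3, the ligase that seals the nick, was at 70.0, 71.8 and 77.5 CPM in WT and at 91.2, 86.7 and 91.8 in Sirt6 cKO (log2 fold change 0.30, SE 0.12, adjusted p = 0.0686). The Polb and Neil1 groups overlapped and the Lig3 groups did not. Lig3 was called without WT replicate 1 (0.27, adjusted p = 0.0325), by DESeq2 (adjusted p = 0.0454) and with upper-quartile or total-count scaling (adjusted p = 0.0299 and 0.0392), and 25.1% of its exon bases also belong to Rffl on the opposite strand, itself called higher (log2 fold change 0.62, adjusted p = 0.0166). Mpg, which removes alkylated bases, did not pass at -0.43 (adjusted p = 0.11) but its groups did not overlap. Of its exon bases 35.7% also belong to Nprl3 on the opposite strand, itself called higher (log2 fold change 0.85, adjusted p = 0.00106). Xrcc1 was not analysed here.

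PARP enzymes attach ADP-ribose to proteins, and PARP1 and PARP2 do so at strand breaks. Of 4 members, 2 were called lower (against 24.3% of all genes) and none higher (against 22.5%). Parp1 (ENSMUSG00000026496, chr1:180568955-180601253) was at 189, 154 and 161 CPM in WT and at 72.0, 78.1 and 60 in Sirt6 cKO (log2 fold change -1.26, SE 0.15, adjusted p = 0.000329). Parp2 (ENSMUSG00000036023, chr14:50807946-50821300) was at 27.6, 38.8 and 30.3 CPM in WT and at 18.8, 18 and 19.6 in Sirt6 cKO (log2 fold change -0.78, SE 0.16, adjusted p = 0.00509). Both break-sensing enzymes were lower with no overlap, Parp1 by 2.40-fold and Parp2 by 1.71-fold. Parp11 and Parp16, mono-ADP-ribosyltransferases not known mainly for repair, had positive values of 0.25 and 0.43 that did not pass (adjusted p = 0.183 and 0.103), although all Sirt6 cKO samples were above all WT samples for both.

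In nucleotide excision repair 2 of 7 members (28.6%) were called lower and 1 (14.3%) higher, against 24.3% and 22.5% of all genes, with a median log2 fold change of -0.07. Ercc1 (ENSMUSG00000003549, chr7:19344778-19356524), the partner of the XPF nuclease that cuts on one side of the lesion, was at 127, 78.3 and 93.1 CPM in WT and at 30.4, 25.7 and 25.4 in Sirt6 cKO (log2 fold change -1.87, SE 0.20, adjusted p = 0.000152). Ercc5 (ENSMUSG00000026048, chr1:44147847-44181260), the XPG nuclease that cuts on the other side, was at 20.1, 36.5 and 32.5 CPM in WT and at 52.3, 55.5 and 50.1 in Sirt6 cKO (log2 fold change 0.82, SE 0.21, adjusted p = 0.0124). Ercc1 was called lower and Ercc5 higher, each with no overlap between the groups. Without WT replicate 1, which was the highest WT sample for Ercc1 and the lowest for Ercc5, the values were -1.66 and 0.61 (adjusted p = 1.98e-05 and 0.00163).

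Ercc2 (ENSMUSG00000030400, chr7:19382010-19395694), the XPD helicase of TFIIH and a neighbour of Ercc1 on chromosome 7, was at 56.7, 40.5 and 44.6 CPM in WT and at 34.1, 32.7 and 35.0 in Sirt6 cKO (log2 fold change -0.48, SE 0.16, adjusted p = 0.0326). Its call was lost in 4 of 6 fits (without WT replicate 3 or any 1 of the Sirt6 cKO samples, adjusted p = 0.0659 to 0.106) and with upper-quartile scaling (adjusted p = 0.0612). Xpc, which finds the distorted helix, was at 32.1, 28.6 and 31.7 CPM in WT and at 38.5, 35.5 and 33.5 in Sirt6 cKO, narrowly without overlap (log2 fold change 0.22, SE 0.13, adjusted p = 0.202). Its partner Rad23b (-0.07, or 0.07 without Sirt6 cKO replicate 2) and the damage verifier Xpa (0.21) overlapped between the groups.

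Of the 4 checkpoint members, 1 (25%) was called lower, 1 (25%) higher and 2 neither, near the shares of 24.3% and 22.5% of all genes. Chek2 (ENSMUSG00000029521, chr5:110840017-110874133), the kinase that ATM activates, was at 22.5, 23.6 and 22.0 CPM in WT and at 10.6, 8.75 and 9.72 in Sirt6 cKO (log2 fold change -1.22, SE 0.15, adjusted p = 0.00035). Rad9b (ENSMUSG00000038569, chr5:122323223-122354233), a paralog of the RAD9 subunit of the checkpoint clamp, was at 1.62, 2.54 and 2.28 CPM in WT and at 10, 10.7 and 10.1 in Sirt6 cKO (log2 fold change 2.25, SE 0.22, adjusted p = 0.000105). The groups were far apart for both genes. The WT samples of Chek2 lay close together, those of Rad9b less so, with WT replicate 1 at 67.2% of the others, and Rad9b was 4.75-fold higher from a low level. Of its exon bases 34.3% also belong to Pptc7 on the opposite strand, which moved the other way (log2 fold change -0.35, adjusted p = 0.0413).

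The apical kinases gave no call in the comparison of all samples. Atm was at 25, 80.9 and 74.2 CPM in WT and at 37.4, 46.4 and 43.8 in Sirt6 cKO (log2 fold change -0.50, SE 0.36, adjusted p = 0.283). Atr was at 11.7, 48.0 and 50.7 CPM in WT and at 42.0, 46.2 and 49.3 in Sirt6 cKO (log2 fold change 0.32, SE 0.43, adjusted p = 0.575). In both genes WT replicate 1 was far below the other 5 samples. Without it Atm was called lower (-0.87, SE 0.11, adjusted p = 0.000386), whereas Atr changed sign to -0.11 (SE 0.11, adjusted p = 0.426). Chek1, like the translesion polymerase gene Polh, was not analysed here.

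WT replicate 1 held under 60% of the mean of the other WT samples for 13 of the 55 members, and 5 of these were among the 8 members with more than 8000 exon bases: Atr (23.7%), Atm (32.3%), Polq (33.7%), Brca2 (34.9%) and Brca1 (50.6%). For 15 of the 24 genes called lower it was the lowest WT sample, that is, nearest to the Sirt6 cKO samples. Leaving it out added 5 lower calls (Atm, Brca2, Nbn, Msh3 and Pms1) and 2 higher ones (Lig3 and Msh5) and removed none, and members falling more than 2-fold went from 15 to 18. With the trend of each sample with exon length taken out, 24 members were again called lower and 7 higher, against 2780 and 2575 of all 11246 genes. That trend was fitted over all rows tested, including those where counts and gene label do not match. It may therefore have been removed only in part.

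**Figure D3:**
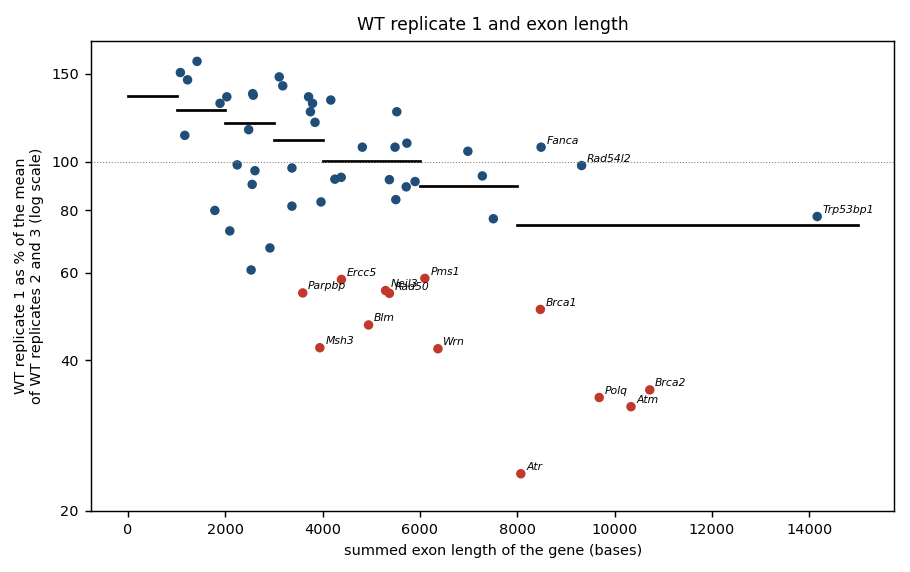
Level of each of the 55 members in WT replicate 1 as a percentage of the mean of WT replicates 2 and 3 (log axis) against the summed exon length of the gene in bases, with values under 60% in red. Black lines give the median over all 6615 usable tested genes in each length range, the last of which is open above. The members scatter around that fall, with Atr, Atm, Polq and Brca2 well below it and Fanca above it.

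On a scale of CPM per kilobase of exon, which allows levels of different genes to be compared, Rad23b was the highest member in both groups, at 93.4 in WT and 88.8 in Sirt6 cKO. Next in WT came Msh6 (51.3), Parp1 (43.7), Apex1 (42.5) and Ercc1 (32.0), and all 4 were called lower. In Sirt6 cKO these stood at 13.1, 18.2, 14.9 and 8.73, and Xrcc5 (13.2 in WT, 22.6 in Sirt6 cKO) moved from rank 12 to rank 2. Exo1 went from rank 17 to 49 and Rad51ap1 from rank 13 to 46 of 55. At the low end were Msh5 (0.615), Tdg (0.694) and Rad9b (0.735) in WT and Polq (0.745) in Sirt6 cKO.

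**Figure D4:**
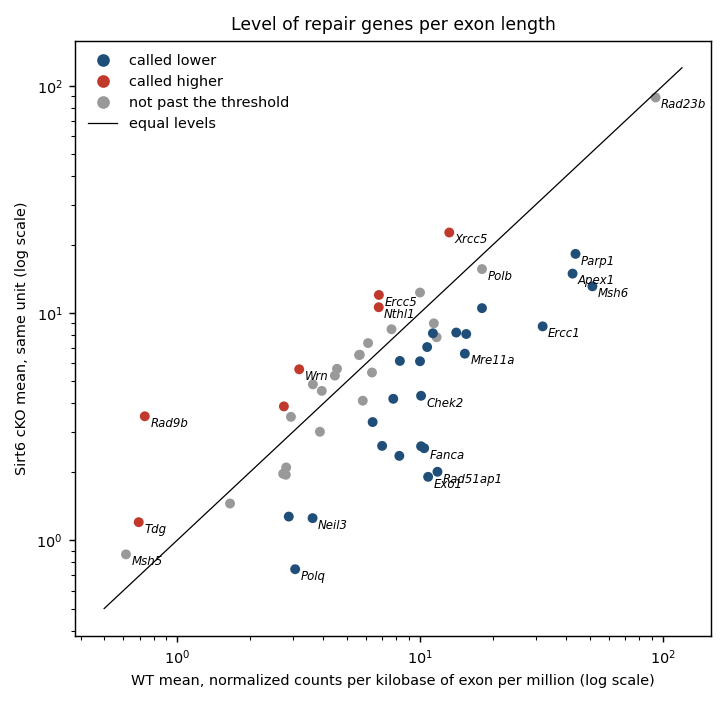
Mean level (CPM per kilobase of exon) in Sirt6 cKO against WT for 53 of the 55 members, both axes on a log scale, colored by the edgeR call on 3 against 3 samples, with a line of equal levels. Msh6, Parp1, Apex1 and Ercc1 were high in WT and lie below the line, Rad23b lies on it at the top, and Xrcc5 and Rad9b lie above it.

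A wider list of repair and checkpoint genes that the name rule did not take had 49 of its 85 genes in usable rows. Of these, 21 (42.9%, against 24.3% of all genes) were called lower, 4 (8.16%, against 22.5%) higher and 24 neither, with a median log2 fold change of -0.36. The nuclease-helicase Dna2 (-2.49, adjusted p = 5.83e-05), the checkpoint mediators Clspn (-2.28, adjusted p = 3.81e-05) and Topbp1 (-2.26, adjusted p = 0.000122) and the junction nuclease subunit Eme1 (-2.25, adjusted p = 0.000586) fell most. Topbp1, which activates ATR, was at 248, 439 and 432 CPM in WT and at 79.2, 86.0 and 68.6 in Sirt6 cKO, with every WT sample far above. All 4 genes called higher are known from lesion bypass, transcription-coupled repair or strand break repair, namely Rev3l (2.0, adjusted p = 0.00968), Uvssa (1.86, adjusted p = 0.00256), Poli (1.60, adjusted p = 0.000128) and Aptx (1.04, adjusted p = 0.000722). Rev3l, the catalytic subunit of polymerase zeta, was at 15.1, 74.7 and 64.5 CPM in WT and at 162, 242 and 211 in Sirt6 cKO, with WT replicate 1 far the lowest.

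Many repair genes are transcribed mainly in dividing cells, and transcripts of S, G2 and M phase were lower in the same samples. Of 23 S phase transcripts with a usable row, 21 were called lower (91.3%, against 24.3% of all genes) and 1 higher (Uhrf1, 4.35% against 22.5%), with a median log2 fold change of -2.51 and a summed level of 3250 to 3710 CPM in WT and 695 to 742 in Sirt6 cKO. The replication genes Mcm5 (-3.87, adjusted p = 3.69e-05), Cdc6 (-3.39, adjusted p = 5.1e-06), Mcm6 (-3.19, adjusted p = 7.19e-06) and Rrm2 (-2.95, adjusted p = 3.01e-06) were among the largest falls. Of 23 G2 and M phase transcripts, 19 were called lower (82.6%, against 24.3%) and none higher (against 22.5%), with a median of -1.53 and a summed level of 3100 to 4370 CPM in WT and 1560 to 1650 in Sirt6 cKO. The mitotic regulators Cdc20 (-2.42, adjusted p = 7.42e-05), Aurka (-2.34, adjusted p = 2.4e-05), Birc5 (-2.27, adjusted p = 9.35e-06) and Kif2c (-2.04, adjusted p = 0.00011) fell most. Without WT replicate 1, 22 S phase and all 23 G2 and M phase transcripts were called lower.

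Both sets of repair genes touched the S phase list. Ung, Rad51ap1, Exo1 and Blm are on it, and all 4 fell by more than 2-fold (against 7.15% of all genes), with a median log2 fold change of -2.16. The other 51 members had 20 called lower (39.2%, against 24.3% of all genes), 7 higher (13.7%, against 22.5%) and 24 neither, with a median of -0.37. Clspn, Brip1 and Usp1 of the wider repair list are on the S phase list too. The part of the lower S, G2 and M phase transcripts in the lower repair transcripts was not tested.

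**Figure D5:**
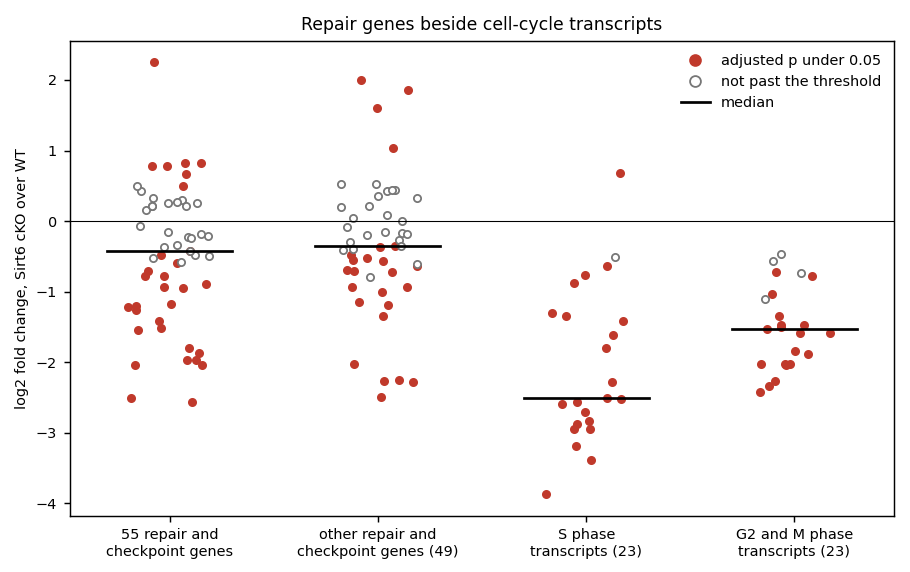
Log2 fold change of Sirt6 cKO over WT for single genes (points, spread sideways only for visibility) in 4 lists, with filled points past an adjusted p of 0.05 in the edgeR fit and black lines at the median. The medians are -0.43 for the 55 repair and checkpoint genes, -0.36 for the 49 other repair genes, -2.51 for S phase and -1.53 for G2 and M phase transcripts. Both repair lists span 0, while the cell-cycle lists lie almost wholly below it.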

How the data were processed

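Total RNA of 6 chondrocyte samples, 3 WT and 3 Sirt6 cKO, was sequenced as 150-base reads. The authors deposited raw counts per gene with gene positions. Per the labels' processing notes, cutadapt, HISAT2 2.0.5, StringTie and the human build hg19 were used, whereas the positions match mouse GRCm38. The labels and the study's methods name different library kits and sequencers. The methods describe strand-specific libraries, but the counter and its strand setting are not given in the sources used here. Reads of overlapping genes may therefore be split, and 16 members share exon bases with another gene, among them Ercc2 (17.8%), Trp53bp1 (15.0%), Fancl (13.7%) and Ogg1 (11.4%).

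Genes were named by position (at least 0.5 of the joint span shared with a RefSeq GRCm38.p6 gene), which named 10609 of 11659. Members and lists were taken only from rows where counts belong to the gene label. The fit and the shares of all genes took in every row tested. Among the 6615 tested genes in usable rows, 25.8% were called lower and 24.0% higher. With gene numbers 1 to 20900 and 25770 to 48200 the length trend of WT replicate 1 appeared at the same row (Spearman -0.459 and -0.48), whereas between these ranges it appeared 1 row further down (-0.477).

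The test was the quasi-likelihood test of edgeR 4.0.16 under R 4.3.3 (raw counts, TMM factors, filterByExpr, 11246 genes kept, Benjamini-Hochberg adjustment over all of them, adjusted p under 0.05), and the code was tested on simulated counts. SE is the absolute log2 fold change divided by the square root of F. Values per sample are CPM by effective library size, printed as mean ± SD. Total counts ran from 25726958 to 30156935 a sample. Levels between genes are compared per exon length. Alternatives were DESeq2 1.42.0, limma-voom (limma 3.58.1), other scalings and filters, a replicate block and leaving out each sample, and, chosen after seeing the data, removal of the exon length trend. The trend was fitted over all rows tested, usable or not.

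Deviations of same-numbered WT and Sirt6 cKO samples from their group means had correlations over genes of 0.262, 0.104 and 0.136. The largest belongs to replicate 1, whose 2 samples both fell with exon length (Spearman -0.478 and -0.281). No source ties a number to a litter or day. The main test did not pair the samples, and the replicate block is given only as an alternative. Members, pathways and lists were chosen with earlier results of these data known. In each pathway, values per sample are given for up to 4 called members with the largest absolute change and for a fixed set of core genes, and in other lists up to 4 called genes are named. Further members are described where WT replicate 1 or a shared complex made them relevant, after their values were seen. Of the members, 2 that did not pass the threshold are counted but not reported here by name.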

Additional observations from a re-analysis of the deposited data

How the results depend on the processing

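The 24 lower calls stayed within 1.5 times under every alternative run on the 55 members, and no called member changed sign under any of them. Of the uncalled members named, Atr, Rad23b and Trp53bp1 did in the fits given with them. Fits that left out 1 sample gave between 4 and 9 higher members, with 4 without WT replicate 3 or Sirt6 cKO replicate 1, and between 1 and 3 higher by over 2-fold, with 3 without WT replicate 2. At an adjusted p under 0.01 the higher members were 3, and with all rows of the table, mislabelled ones included, 12 of 81. Testing against a 2-fold change (glmTreat) left 8 of the 15 genes called lower by over 2-fold. With the replicate number as a block, 25 members were lower, and the replicate block changed no call other than that of Nbn. With the exon length trend removed as well, the block called Brca2 (adjusted p = 0.0391) in place of Nbn. Upper-quartile scaling, which moved the median of all genes to 0.08, lost Ercc2 (adjusted p = 0.0612) and Rad54l2 (adjusted p = 0.053), and total-count scaling lost Wrn (adjusted p = 0.0566). The cause of these changes was not tested. With 3 samples a group, an exact permutation test of a single gene cannot go below p = 0.1. All values are relative levels within a library.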
